A study of Gallus gallus with 2 samples.

Results

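The Wnt ligands, their receptors and their extracellular and intracellular modulators were examined in chicken neural tube cells with and without hairpins against Sox4 and Sox11. Members were all chicken probe sets whose single gene symbol on the array platform begins with WNT, FZD, SFRP, DKK, RSPO, AXIN, DVL or TCF7, or is LEF1, LRP5, LRP6, WIF1, FRZB, APC, GSK3B or PORCN. This gave 103 probe sets of 50 genes, out of 37693 chicken probe sets and 13008 named genes. They comprised 18 ligands, 12 receptors, 9 secreted antagonists, 3 R-spondins, 5 cytoplasmic components and 3 nuclear factors. No probe set carried the symbol GSK3B or PORCN alone, and both genes were not analysed here.

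Wnt proteins are secreted lipid-modified ligands that bind Frizzled receptors. Together with an LRP co-receptor they act through Dishevelled to stop a complex of Axin, APC and kinases from degrading beta-catenin, which then works with TCF and LEF factors at target genes, while other Wnts act through planar polarity and calcium routes. In the vertebrate neural tube, Wnt ligands made at the dorsal midline are known for their roles in progenitor proliferation, dorsal patterning and the formation of neural crest.

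The control was 1 sample of neural tube cells from embryos that received the plasmid pSuper-neo-GFP. The knockdown was 1 sample from embryos that received pSuper-neo-GFP-Sox4-shRNA and pSuper-neo-GFP-Sox11-shRNA, plasmids for short hairpin RNAs against these SoxC transcription factors. In both, plasmids were delivered by electroporation on both sides of the neural tube at Hamburger-Hamilton stage (HH) 9, tissue was dissociated, and GFP-positive cells were sorted before RNA was extracted. The labels give harvest at HH11 and also an incubation of 2 days, which leaves their stage uncertain, and how many embryos each sample pooled is not stated there. By its title, the series searches for genes under SoxC control during spinal cord neurogenesis.

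Each sample was hybridised to 1 Affymetrix array, and the values below are MAS5 signals, a linear measure of probe set brightness. With 1 array per group there was no replicate spread, no difference was tested, and "higher" and "lower" describe these 2 arrays only. The log2 ratio is always that of knockdown over control, so 1 means a doubled signal. Signals of different probe sets are not on a common scale, so no gene is called more abundant than another, and "bright" and "dim" refer to the probe set. In such sorted bulk samples, fewer cells of a type and less RNA per cell cannot be told apart.

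Several facts of the arrays touch all results. SOX4 was 2.09-fold and SOX11 1.63-fold lower on the knockdown array. Chicken probe sets had a median of 112.8 (control) and 133.8 (knockdown), and background, taken from probe sets for viral sequences, was 63.6 and 65.8. For actin, the 3' control probe set was 5.45 times as bright as the 5' one in the control and 1.85 times in the knockdown, while the factors were 2.92 and 1.5 for EF1A and 1.25 and 1.05 for GAPDH. All 8 neural progenitor markers, among them SOX2, SOX3 and PAX6, lay above background on both arrays. So did all matched muscle, blood and endothelium markers, and 62.5% (control) and 65.5% (knockdown) of chicken probe sets. Lying above background therefore does not tell these cell types apart. The 7 measured neuron markers were all at least 1.5-fold lower on the knockdown array (median log2 ratio -0.83), and all 7 muscle markers were at least 2-fold higher (median 2.01). Of all measured genes, 5.71% and 3.64% passed these marks.

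Each gene was represented by its brightest probe set, and a gene was called measured when its mean signal over both arrays reached 118, the median of chicken probe sets. Of the 50 Wnt pathway genes, 35 were measured, 6 of these were at least 1.5-fold higher on the knockdown array, 1 was at least 1.5-fold lower and 28 lay within 1.5-fold. The 6 were the ligands WNT1, WNT3, WNT6 and WNT7A and the R-spondins RSPO1 and RSPO3, and the 1 was the co-receptor LRP5. These are 17.1% and 2.86% of the measured Wnt pathway genes, and of all 9303 measured genes 11.4% passed the same 1.5-fold mark upward and 5.71% downward. Only WNT1 was past 2-fold in either direction, where 3.64% of all measured genes passed that mark upward and 1.06% downward. The median log2 ratio was 0.09, against 0.02 over all measured genes, with 18 values above 0 and 17 below (52.1% and 47.9% over all measured genes), so the pathway as a whole stood near the middle of the array. The split of 6 higher and 1 lower became 4 and 3 after median centring, and 3 and 1 after either quantile normalization or loess centring. Of all measured genes, 9.72% were at least 1.5-fold higher after median centring, 7.76% after quantile normalization and 8.03% after loess centring. The shares at least 1.5-fold lower were 7.05%, 8.13% and 7.8%.

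**Figure D1:**
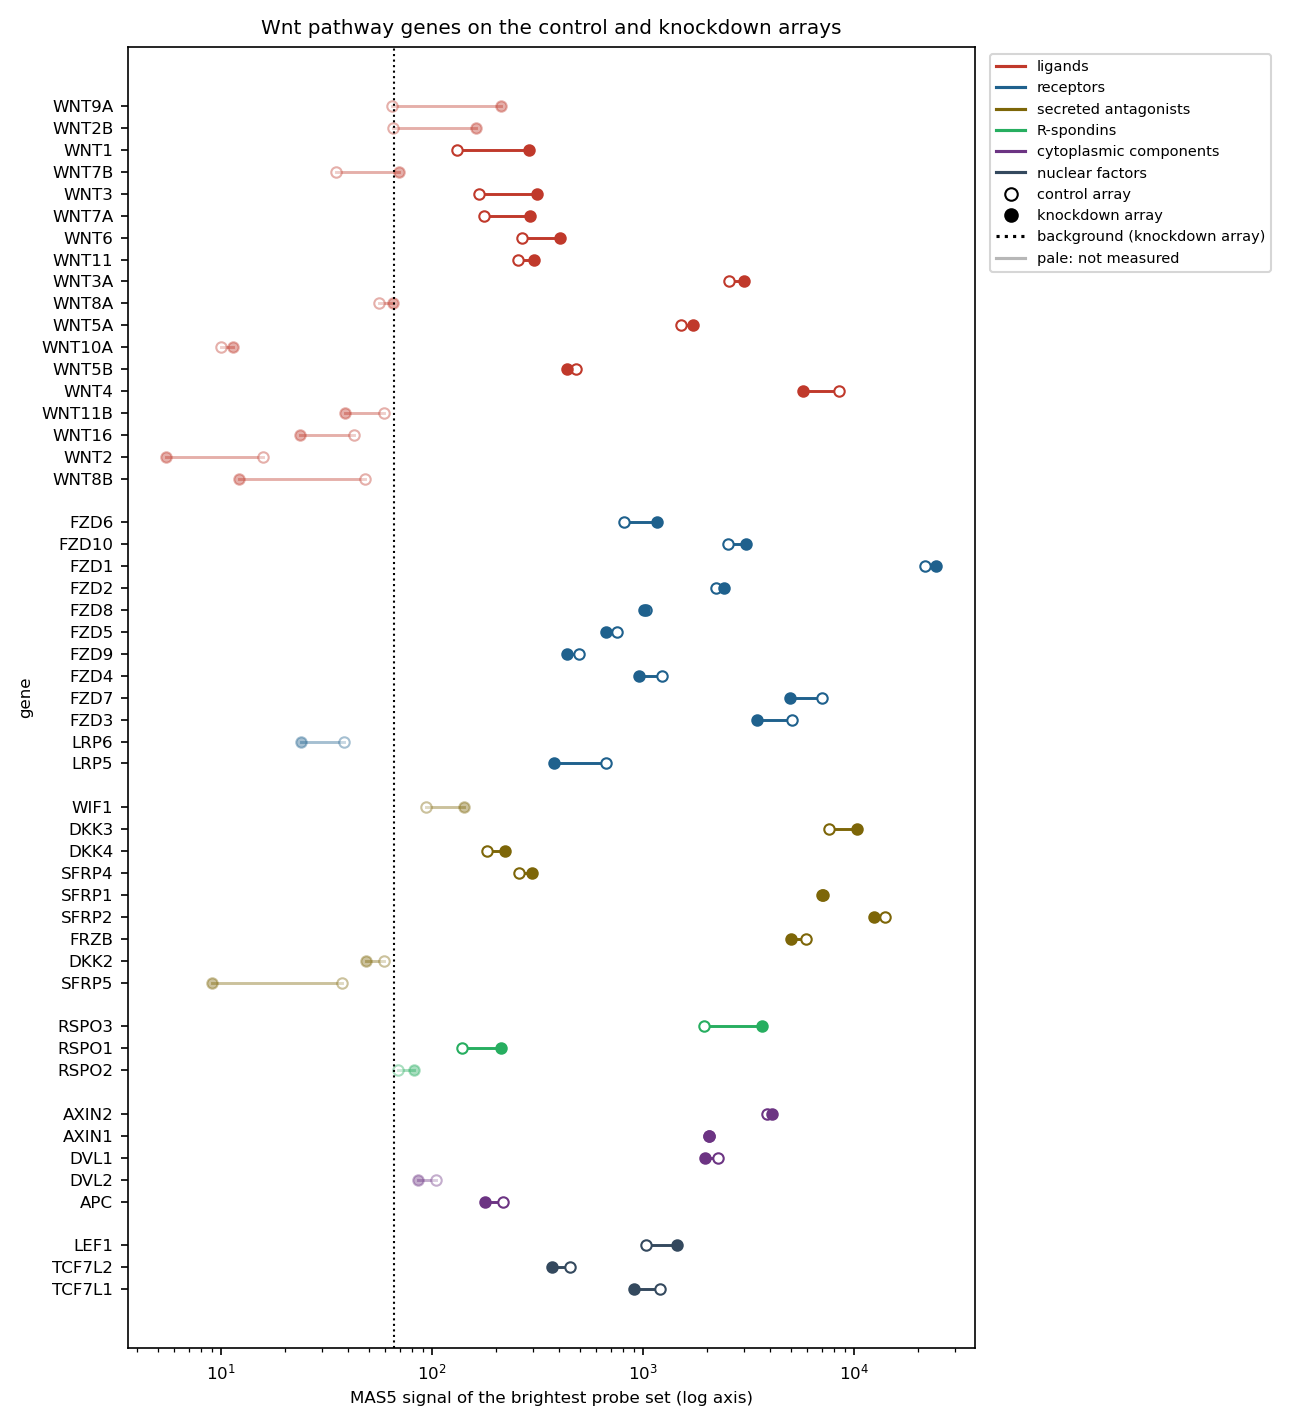
MAS5 signal of the brightest probe set of each of the 50 Wnt pathway genes (log axis) on the control array (open points) and the knockdown array (filled points), in 6 role groups; pale genes were not measured. Among measured genes, WNT1, WNT3, WNT7A, WNT6, RSPO3 and RSPO1 have the knockdown point at least 1.5-fold to the right, and LRP5 has it at least 1.5-fold to the left.

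Of 18 ligand genes, 9 were measured, and 7 of these were above 0, with a median log2 ratio of 0.26. Among them 4 were at least 1.5-fold higher and 0 were at least 1.5-fold lower. Over all measured genes 52.1% were above 0 and 5.71% at least 1.5-fold lower. All 4 had a mean signal under 813, where 22.7% of all measured genes were higher by as much, against 11.4% at all signals. Under that signal, 2186 of 3420 measured genes were above 0, with a median log2 ratio of 0.18. WNT1, made at the dorsal midline of the neural tube, gave 132 on the control and 289 on the knockdown array, a log2 ratio of 1.13 or 2.19-fold. WNT3, a ligand of the beta-catenin route, had 166 and 314 (log2 ratio 0.92). WNT7A, known from dorsal limb ectoderm and from neural tissue, had 176 and 291 (0.73). These 3 ligands had low signals in the control. They are named here for being past 1.5-fold upward, so their shared direction is not a separate result.

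WNT6, known in chick from the surface ectoderm beside the neural tube, had 265 in the control and 405 in the knockdown, a log2 ratio of 0.61 that lay just past the 1.5-fold mark. WNT3A, the other classic ligand of the dorsal midline, had 2549 and 3002 (log2 ratio 0.24), and its dimmer probe set had 766 and 1269 (0.73). WNT1 and WNT3A, which share a site of expression, therefore differed in the size of their log2 ratio but not in its sign. WNT5A and WNT11, known for signalling without beta-catenin, had log2 ratios of 0.20 and 0.26.

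The exceptions among ligands were WNT4 and WNT5B. WNT4, known from kidney and gonad development and present in the neural tube, had the lowest ratio of the group, with 8464 and then 5734 (log2 ratio -0.56), just short of 1.5-fold. WNT5B had 479 and 434 (-0.14).

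Of the 9 ligands that were not measured, 6 lay at or below background on both arrays, namely WNT2, WNT8A, WNT8B, WNT10A, WNT11B and WNT16, so no ratio is given for them. WNT9A, known for its part in joint formation, fell just short of the measured level, with 64.2 in the control, only just above background, and 211 in the knockdown (log2 ratio 1.72). WNT2B, a ligand of the eye margin, had 65.3 and 162 (1.31). Both were more than 2-fold higher from a control signal near background, where ratios are least certain. WNT7B lay below background in the control (35.1) and just above it in the knockdown (69.7), which is at least 1.10-fold higher. In the RefSeq gene table of the assembly GRCg7b, WNT9A is the protein-coding gene next to WNT3A, and WNT10A the one next to WNT6. WNT9A and WNT3A, though neighbours, had log2 ratios of 1.72 and 0.24.

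R-spondins bind LGR receptors and keep Frizzled receptors on the cell surface. Of 3 genes 2 were measured, and both were past 1.5-fold upward, a mark that 11.4% of all measured genes passed. RSPO3, known in mouse from the roof plate, gave 1944 on the control and 3665 on the knockdown array, which is 1.89-fold higher (log2 ratio 0.92). Its second probe set had 330 and 1085 (log2 ratio 1.72), so the 2 probe sets of RSPO3 above background gave the same direction. Of the 3853 genes measured in a second brightest probe set, 24.5% were past 1.5-fold upward in it. RSPO1 had 139 and 213 (0.62), above 76.1% of the genes of its signal, and RSPO2, above background but not measured, had 68.5 and 82.4 (0.27). By the brightest probe set of each gene, RSPO3 was the only bright Wnt pathway gene past 1.5-fold in either direction. Bright here means a mean signal of 813 or more. The second probe sets of FZD1 (mean signal 1408, log2 ratio 0.89) and WNT3A (986, 0.73) were also this bright and past 1.5-fold upward.

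Of 12 receptor genes 11 were measured, 7 of them were below 0, 1 was past 1.5-fold downward and 0 upward. Over all measured genes these shares were 47.9%, 5.71% and 11.4%. The receptors had a median of -0.17 on the log2 scale. It was above 0 under 2 of 12 other settings, at 0.05 with only the brighter genes and 0.08 with the second probe set of each gene. LRP5, a co-receptor for Wnt ligands, gave 668 and 378, which is 1.77-fold lower (log2 ratio -0.82), and its other probe sets lay below background. LRP6, the related co-receptor, lay below background on both arrays.

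Among Frizzled genes, FZD3 and FZD7 had the lowest ratios. FZD3, known for its part in axon growth and planar polarity, had 5072 and 3454 (log2 ratio -0.55), but its 2 dimmer probe sets above background gave 0.08 and 0.10, so the direction of FZD3 depends on the probe set. FZD7 had 7008 and 4962 (-0.50), and its second probe set, with 874 and 647, gave -0.43. FZD4 was likewise lower in both probe sets, with log2 ratios of -0.37 and -0.47. FZD6, the highest of the group, had 809 and 1157 (0.52), and FZD10, known from the dorsal neural tube, had 2513 and 3078 (0.29). FZD1, FZD2, FZD5, FZD8 and FZD9 lay between -0.20 and 0.17. Frizzled genes thus moved in both directions, each by less than 1.5-fold in its brightest probe set.

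All 6 measured secreted antagonists lay within 1.5-fold in their brightest probe sets, as did 7711 of all 9303 measured genes. Their median log2 ratio was 0.10, and it was below 0 under 3 of 12 other settings. SFRP1, a secreted Frizzled-like protein that binds Wnts and is known from neural progenitors, had 7100.4 in the control and 7049 in the knockdown. SFRP2 had 13983 and 12424 (log2 ratio -0.17), and FRZB, another member of this protein family, had 5942 and 5017 (-0.24). DKK3, a Dickkopf-related protein whose role in Wnt signalling is less clear, had the highest ratio of the 6, with 7623 and 10261 (0.43). DKK4 and SFRP4 had log2 ratios of 0.29 and 0.20. A dimmer SFRP4 probe set lay below background in the control (11.9) and had 160.0 in the knockdown, which is at least 2.52-fold higher. WIF1, which binds Wnts directly, was above background but not measured, with 93.2 and 141 (0.60), and SFRP5 lay below background on both arrays. So did the brighter probe set of DKK2, while its dimmer one had 6.2 and 84.0, which is at least 1.32-fold higher.

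The cytoplasmic and nuclear members included 2 genes that Wnt signalling itself induces, AXIN2 and LEF1. AXIN2, a negative feedback gene of the pathway, gave 3844 and 4099 (log2 ratio 0.09), and its second probe set had 2821 and 2894 (0.04), so AXIN2 was nearly even in both. LEF1, a factor that works with beta-catenin at target genes, had 1032 and 1445 (0.49), and its second probe set had 131 and 313 (1.26). The other nuclear factors lay within 1.5-fold, TCF7L1, mainly a repressor, with 1204 and 906 (-0.41) and TCF7L2 with 450 and 368 (-0.29). A dimmer probe set of TCF7L2 gave 0.64. Another lay below background in the control (37.3) and had 102.9 in the knockdown, which is at least 1.62-fold higher.

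AXIN1, the scaffold of the complex that degrades beta-catenin, had 2059.5 and 2058.6 in its brightest probe set, the most even pair of all members. Dimmer measured probe sets of AXIN1 gave log2 ratios of -0.34 and 0.34. DVL1, a Dishevelled protein that relays the signal from Frizzled, had 2256 and 1965 (log2 ratio -0.20), and its second probe set gave -0.22. A dimmer DVL1 probe set had 120.0 and 260.0 (1.12), and the ratio of DVL1 was above 0 when probe sets were averaged (0.23 over the measured ones, 0.45 over all). APC, another part of the degradation complex, had 217 and 179 (-0.28). DVL2 was above background but not measured, with 104 and 86.1 (-0.28). A dimmer DVL2 probe set lay below background in the control (39.0) and had 82.7 in the knockdown, which is at least 1.30-fold higher. None of the 4 measured cytoplasmic members was past 1.5-fold in its brightest probe set, where 7711 of all 9303 measured genes lay within 1.5-fold.

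The higher members were mostly dim genes, and dim genes were higher on the knockdown array as a whole. Among the 3420 measured genes with a mean signal under 813, 22.7% passed 1.5-fold upward and 6.96% downward, with a median log2 ratio of 0.18. Of the 14 Wnt pathway genes in this range, 5 were at least 1.5-fold higher (35.7%) and 1 was at least 1.5-fold lower, with a median of 0.23. Among the 5883 brighter genes, 4.84% passed it upward and 4.98% downward, and of the 21 Wnt pathway genes there, 1 was higher (4.76%) and 0 were lower. The share of higher genes among bright members was thus at the background, and the part of the signal level in the ratios of WNT3, WNT6, WNT7A and RSPO1 was not tested.

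Each gene was therefore also set beside the genes of similar signal, in 20 groups of equal size. WNT1, RSPO3 and DKK3 lay above the 90th percentile of their group, and LRP5, WNT4, FZD3 and FZD7 below the 10th, while the other 28 lay between. By construction 10.1% of all genes lie beyond each of these limits, so 3 and 4 of 35 are near that background. RSPO3 stood highest, above 97.8% of the genes of its signal, whose median log2 ratio was -0.03. WNT1 stood above 92.5% of its group, WNT3 above 86.7% and WNT6 above 79.8%. LRP5 had 3.23% of its group below it, and WNT4 5.16%.

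**Figure D2:**
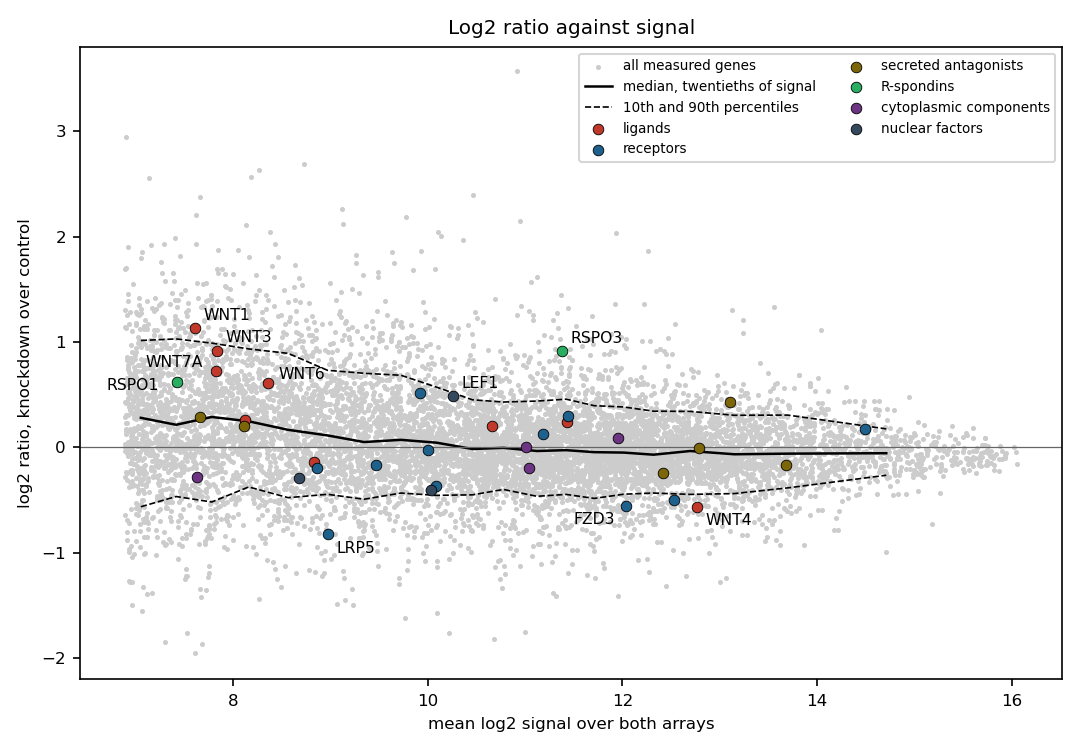
Log2 ratio of knockdown over control (vertical) against mean log2 signal over both arrays (horizontal) for 9303 measured genes (grey) and 35 Wnt pathway genes (coloured by role); lines give the median and the 10th and 90th percentiles in 20 signal groups. The median line lies above 0 for dim genes, and RSPO3 and WNT1 lie above the upper dashed line while LRP5 and WNT4 lie below the lower one.

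Probe sets of a gene give a view of how well a ratio is determined. Of the Wnt pathway genes, 17 had several probe sets above background on both arrays, and in 12 of these all had the same sign (70.6%), against 45.0% of the 4488 genes of the array with several such probe sets, where the number of probe sets per gene was not matched. RSPO3, LEF1, WNT3A, WNT5A, WNT11, FZD1, FZD6 and AXIN2 were above 0 in every such probe set, and FZD4, FZD5, FZD7 and APC below 0. AXIN1, DVL1, FZD3, SFRP1 and TCF7L2 had both signs. Sizes could differ where signs were the same, as for WNT11 with 0.26 and 1.37 and for FZD1 with 0.17 and 0.89. Dimmer probe sets leaned upward over the whole array. In the 3853 genes with several measured probe sets, the median log2 ratio was 0.21 in the dimmer ones and -0.05 in the brightest. In the 16 such Wnt pathway genes these medians were 0.11 and 0.05. A larger upward ratio in a dimmer probe set is therefore not particular to these genes. The values of AXIN2, FZD7, FZD5, FZD4 and APC lay only 0.06 to 0.11 apart. WNT1, WNT3, WNT6, WNT7A, RSPO1 and LRP5 each had 1 probe set above background, so no second value bears on them. A robust standard deviation of the log2 ratio of a probe set was estimated over the whole array, in 10 groups of signal. It came from the median absolute deviation of the difference between the 2 brightest measured probe sets of a gene. Such an estimate gives little weight to extreme pairs and leaves out the offset between brighter and dimmer probe sets. At the levels of the measured members it was between 0.15 and 0.51. Of the 35, 5 were past 2 such deviations, namely RSPO3, WNT4, WNT1, FZD7 and FZD3. Of all measured genes 11.3% were past that limit, which rests on the spread between probe sets of the same arrays and holds no spread between samples.

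**Figure D3:**
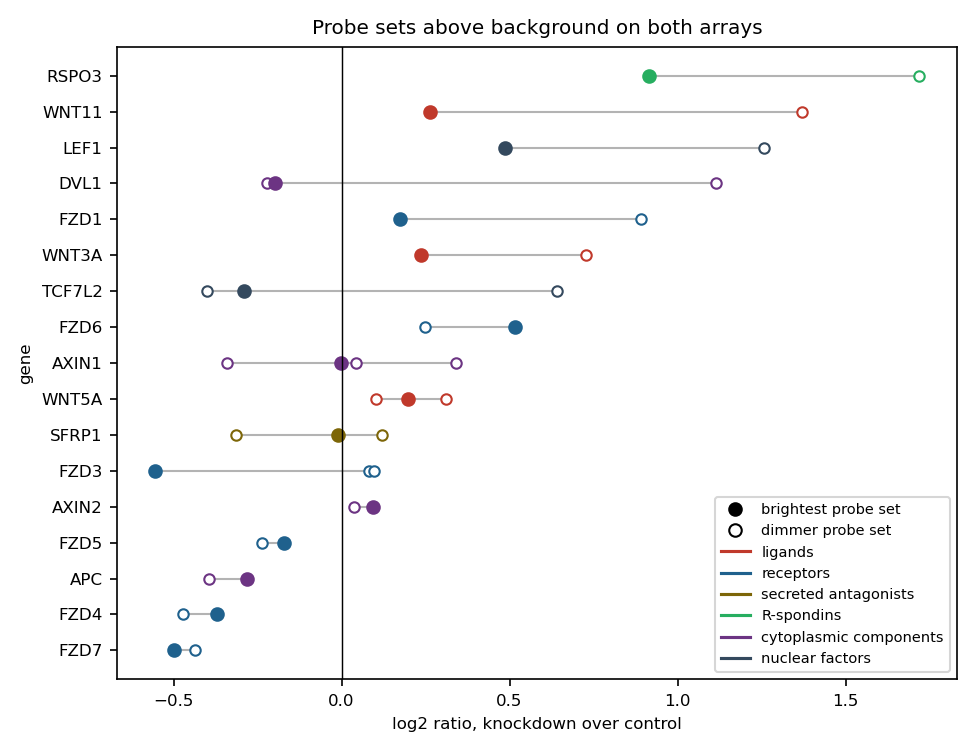
Log2 ratio of knockdown over control (horizontal) of each probe set above background on both arrays, for the 17 Wnt pathway genes with several; filled points are the brightest probe set of the gene. In 12 genes all points lie on one side of 0, and in RSPO3, WNT11 and LEF1 the dimmer probe set lies farther to the right. Over the whole array, dimmer measured probe sets had a median of 0.21, against -0.05 for the brightest of the same genes.

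Other genes of the canonical route, taken from a list of 45 of which 32 were measured, went both ways, with 4 at least 1.5-fold higher, 5 at least 1.5-fold lower (11.4% and 5.71% over all measured genes) and a median log2 ratio of -0.04. CTNNB1, beta-catenin itself, gave 45200.0 and 42083 (log2 ratio -0.10), and WLS, which carries Wnts out of the cell, had 26502 and 24822 (-0.09). CTNNBIP1, an inhibitor of beta-catenin, had 132 and 347 (1.39), and SOSTDC1, a secreted Wnt and BMP antagonist, had 246 and 554 (1.17). CXXC5, known to bind Dishevelled, was lower with 427 and 212 (-1.01), but its second measured probe set gave -0.10. AMER2, a membrane adaptor for APC, had 1060 and 544 (-0.96). LGR4 and ZNRF3, the receptor and the ubiquitin ligase through which R-spondins act, had log2 ratios of -0.31 and -0.24.

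Of 25 genes of the planar polarity and other noncanonical routes 17 were measured, with 2 at least 1.5-fold higher, 1 at least 1.5-fold lower (again beside 11.4% and 5.71%) and a median of -0.04. VANGL2, a core planar polarity protein, had 109 and 260 (log2 ratio 1.25), while a dimmer probe set had 68.8 in the control, just above background, and lay below background in the knockdown. DAAM1 and DAAM2, formins that act downstream of Dishevelled, went opposite ways, DAAM1 with 231 and 88.3 (-1.39) and DAAM2 with 257 and 498 (0.95). ROR1, PTK7 and RYK, receptors or co-receptors of Wnts, had log2 ratios of 0.37, 0.31 and 0.10.

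Genes described in embryos as targets of beta-catenin and TCF were likewise mixed. Of 28 in the list, which shares 6 with the canonical list, 19 were measured, with 2 past 1.5-fold upward and 2 past it downward, beside the same 11.4% and 5.71%, and a median log2 ratio of 0.07. MSX2, a dorsal homeobox gene, had 2364 and 4659 (0.98), and CD44, a surface glycoprotein gene, had 91.8 and 158 (0.78), while its next probe set had 101.0 in the control and lay below background in the knockdown. NEUROG1, a proneural factor gene, had 840.0 and 372 (-1.17), and CDX2, a caudal homeobox gene, had 423 and 233 (-0.86). NOTUM, a feedback inhibitor that inactivates Wnts, had 1732 and 2270.0 (0.39), and CCND1, cyclin D1, had 14014 and 12455 (-0.17). The targets therefore showed no common direction on these 2 arrays.

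Markers of the cell types in which Wnt ligands are made were compared in the same way. Of 11 roof plate and dorsal neural tube markers 8 were measured, with 3 at least 1.5-fold higher, 0 at least 1.5-fold lower (11.4% and 5.71% over all measured genes) and a median log2 ratio of 0.02. The 3 were MSX2, PAX3 (181 and 297, log2 ratio 0.71) and LMX1B (202 and 321, 0.66), while PAX7 was at -0.58. The summed signal of this list was 60840 in the control and 58840 in the knockdown, most of it from ZIC1 (33298 and 30090.0) and ZIC2 (13062 and 13163). Of 12 surface ectoderm markers 7 were measured and 3 were at least 1.5-fold higher, again beside 11.4% of all measured genes. The 3 were KRT7 (543 and 2239, log2 ratio 2.04), ESRP2 (1.93) and CDH1 (0.75). EPCAM had 3291 and 3312 (0.01), and TP63 and DLX5 were at 0.11 and 0.54. The summed signal of this list was 6193 and 8898. TFAP2A was at -0.41, and ESRP1 lay below background on both arrays.

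Lists of mesoderm and endoderm markers were summed in the same way. The summed signals of endothelium markers were 1251 and 2876, of blood markers 26530 and 62320, of muscle markers 2680.0 and 15270, and of notochord, floor plate and endoderm markers 3777 and 5501. Members of a list could differ, with SHH at 1.21 but FOXA2, CHRD and CDX2 at -0.18, -0.44 and -0.86, and MYF5 at 1.33 but FOXC1 and FOXC2 at -0.45 and -0.73 among somite markers. The sums of somite markers were 2320.0 and 2657, and those of neural crest markers 11850 and 9946. Neural progenitor markers summed to 153000 and 138800. A sum follows its brightest probe sets and can hide members that went the other way. Of 6 neural crest markers 2 were above 0, with SNAI2 at 1.29, and 4 below (median log2 ratio -0.25). Of 8 neural progenitor markers 2 were above 0, with SOX2 at 0.76, and 6 below, with SOX1 at -0.77 (median -0.22). Over all measured genes 52.1% were above 0 and 47.9% below. In these lists 0 matched markers lay below background on both arrays. The part of these cell types in the ratios of WNT6, RSPO3 and the other genes past 1.5-fold was not tested.

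**Figure D4:**
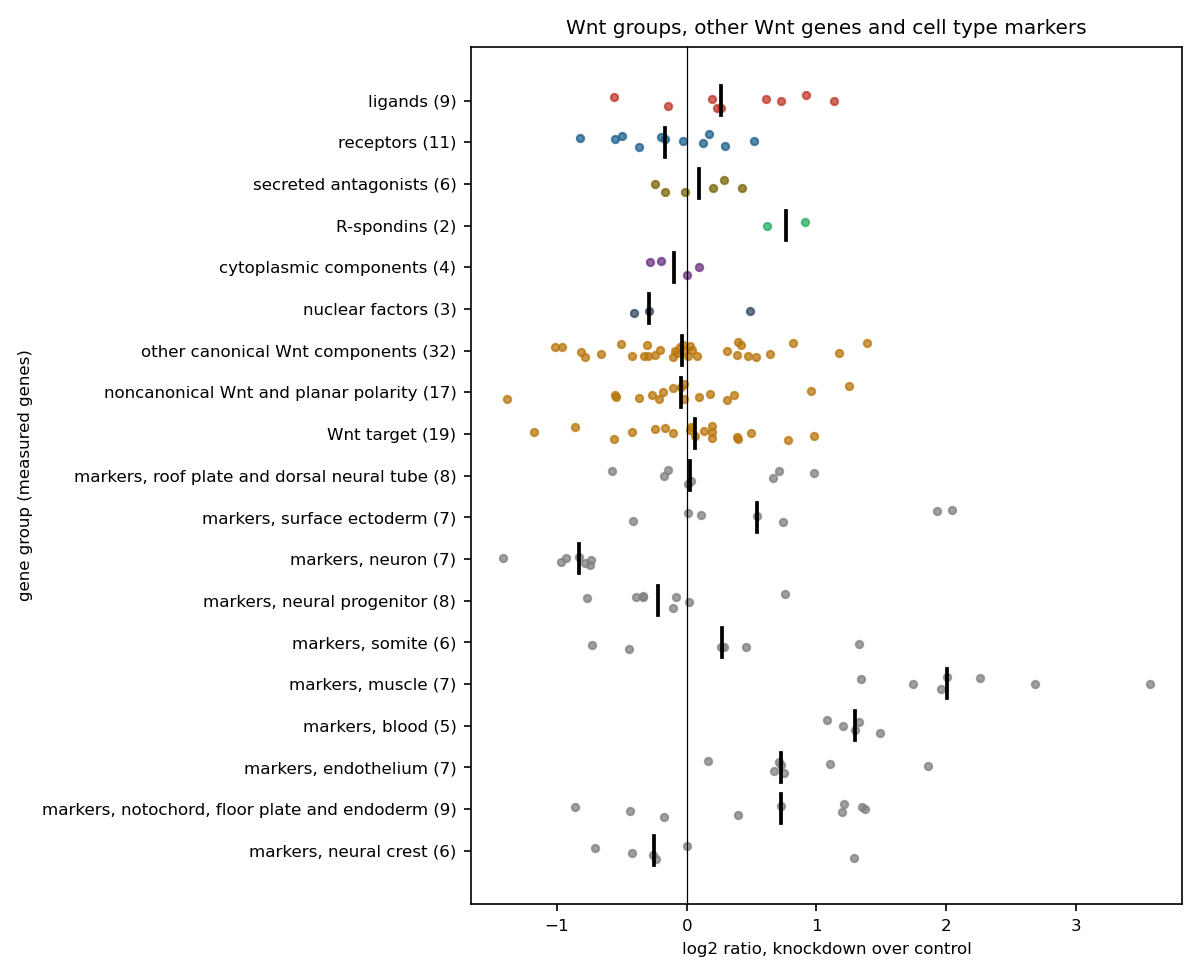
Log2 ratio of knockdown over control (horizontal) of each measured gene (points) in 6 role groups of Wnt pathway genes, 3 lists of other Wnt genes and 10 lists of cell type markers (rows, with the number of genes); black bars are medians. Ligands have a median of 0.26 and receptors of -0.17, beside neuron markers at -0.83 and muscle markers at 2.01.

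The genes that were past 1.5-fold differed in how far they depended on the processing. RSPO3 was past 1.5-fold under 12 of 12 other settings, with log2 ratios from 0.86 to 1.72, and WNT3 under all 10 that could be applied to it, from 0.68 to 0.92. LRP5 was past 1.5-fold under 9 of 10, the exception being the mean of all probe sets (-0.15), which takes in 2 probe sets below background. WNT1 was past it under 9 of 10, with 0.39 under the same rule, where its other probe set lay below background on both arrays. WNT7A was past it under 8 of 10, WNT6 under 7 and RSPO1 under 6. WNT3, WNT6, WNT7A and RSPO1 each had a single probe set, so filters, the background floor and probe set averages left their ratios unchanged. Only median centring, quantile normalization, loess centring and an added constant could move them. In that order WNT3 was at 0.86, 0.68, 0.69 and 0.87, and RSPO1 at 0.56, 0.37, 0.38 and 0.58, short of 1.5-fold in each. The filters and the floor also left RSPO3, LRP5 and WNT1 unchanged. AXIN2 stayed between 0.04 and 0.11 throughout.

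**Figure D5:**
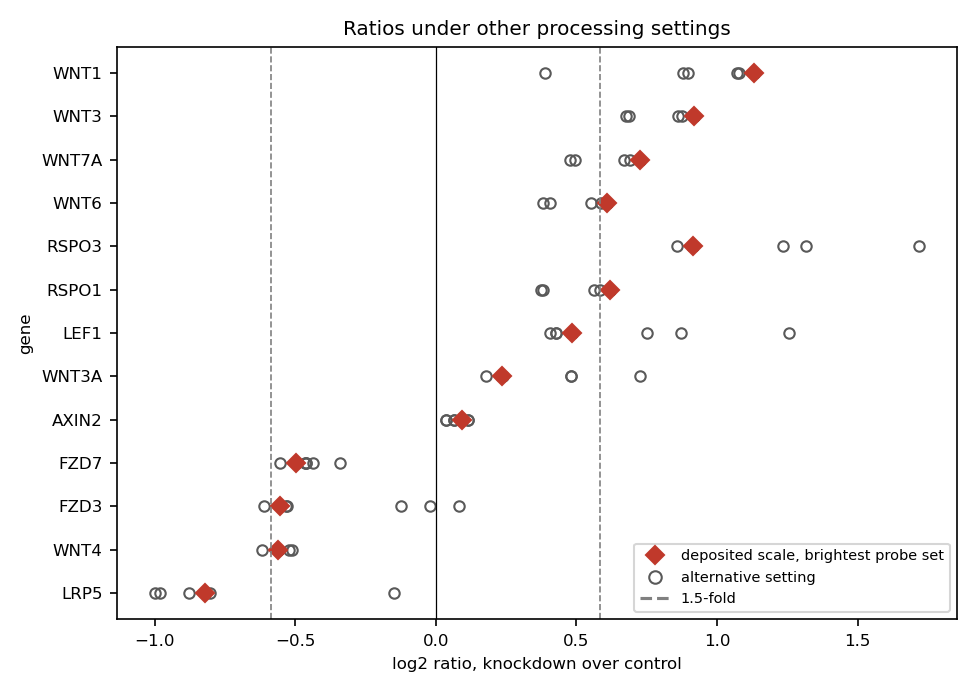
Log2 ratio of knockdown over control (horizontal) of 13 Wnt pathway genes on the deposited scale with the brightest probe set (diamonds) and under up to 12 other settings (open circles); dashed lines mark 1.5-fold. RSPO3 and WNT3 lie past the right dashed line in every setting shown, and AXIN2 stays near 0.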

How the data were processed

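The deposited values are MAS5 signal intensities of 38535 probe sets, linear and not logged, made by the authors with MAS5 5.0 per the submitters' processing notes. Both arrays had a mean near 1000 after removal of the outer 2% at each end, so the deposited intensities were already scaled, and log2 was taken once. Detection calls were not used.

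Symbols came from the platform annotation, updated through Entrez numbers with RefSeq (GRCg7b), which left all 50 member symbols as they were; 27166 of the chicken probe sets had 1 symbol, 177 several and 10350 none. Background was read from the 687 probe sets for viral sequences (95th percentile), and a fold against a signal below it is a lower bound. The brightest probe set stood for a gene. With 1 sample per group there is no test. Every member was accounted for; genes given in full were the members past 1.5-fold, WNT1, WNT3A, AXIN2, LEF1, SFRP1, SFRP2, FZD10 and RSPO3, and in other lists up to 4 past 1.5-fold; other genes were named after their values were seen. The members and lists were chosen with earlier results of these data known. Signal groups, the split at 813 and 2 of the 12 alternatives were added after the values were seen. Counting was tested on simulated data. Python 3.11.15, pandas 2.3.3 and statsmodels 0.14.6 were used.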

Additional observations from a re-analysis of the deposited data

How the results depend on the processing

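The count of Wnt pathway genes at least 1.5-fold higher on the knockdown array was 6 of 35. It was 3 of 35 with quantile normalization and 3 of 35 with loess centring. Without a filter on low signal it was 10 of 50, and with the filter at the 25th percentile 10 of 44. It was 1 of 21 with the filter at the 75th, and 11 of 35 when all probe sets of a gene were averaged. The share of all genes tested moved too, from 11.4% to 7.76% with quantile normalization and 8.03% with loess centring. That share was 18.9% without a filter, 4.84% with the 75th percentile and 18.7% when all probe sets were averaged. With the 25th percentile it lay between 11.4% and 18.7%. The count at least 1.5-fold lower, 1, became 3 with median centring, 7 without a filter, 2 with the filter at the 25th percentile, and 0 with the filter at the 75th, when all probe sets were averaged and with the second brightest probe set. The first 3 of these were 8.57%, 14.0% and 4.55% of the Wnt pathway genes tested. The shares of all genes tested were 7.05%, 10.4%, 7.95%, 4.98%, 5.87% and 4.62% in the same order. Of the measured Wnt pathway genes, 1 was at least 2-fold higher, a mark that 3.64% of all measured genes passed. This count became 0 with quantile normalization, loess centring or the 75th percentile. It was 2 with the mean of measured probe sets and 4 with that of all. The count was 3 without a filter, with the 25th percentile, with genes above background on both arrays and with the second brightest probe set. At least 2-fold lower were 0, beside 1.06% of all measured genes, and 3 without a filter. Shares of all genes past 2-fold are not given for the other settings. The stricter filter tests fewer genes (21) and the looser ones more (44 and 50); the cause of the other shifts was not tested. The median log2 ratio lay between -0.001 and 0.29 in all 12 alternatives, against -0.04 to 0.18 for all genes. No member past 1.5-fold changed its sign. These members were picked for large ratios, and WNT3, WNT6, WNT7A and RSPO1 had a single probe set, so few settings could move them. Among the other measured members, AXIN1, DVL1, FZD3, FZD5, SFRP1, SFRP4, TCF7L2 and WNT11 changed sign under at least 1 setting. Medians of ligands (0.20 to 0.73) and R-spondins (0.62 to 1.72) stayed above 0, and those of the other role groups took both signs. Both ends of the ligand range rest on 3 genes each, and the upper end for R-spondins on RSPO3 alone. No replicate could be left out with 1 array per group, and no paired analysis was possible because each group holds 1 sample. At low signals, ratios carry a wider spread between probe sets (0.48 and 0.51 in the dimmest 2 of 10 signal groups, 0.15 in the brightest).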
